A study of Oryza sativa with 4 samples.

Results

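Narrow binding peaks of OsNF-YB1-GFP with a summit within 2 Mb of the approximate centromere position of a rice chromosome are described here, 447 of the 3203 narrow peaks in the series. They were chosen by position alone, from centromere positions rounded to 0.1 Mb, and they comprised 311 of 2368 peaks in line 16 and 136 of 835 peaks in line 22. OsNF-YB1 is the rice NF-YB subunit of the transcription factor NUCLEAR FACTOR Y. Chromatin was prepared from caryopsis coats, the tissue left once starchy endosperm and embryo are removed, at 8 to 12 days after fertilization (DAF). The plants were japonica rice Zhonghua11 carrying pUbi:OsNF-YB1-GFP, as independent transgenic lines 16 and 22, and anti-GFP ChIP DNA was sequenced beside input DNA, with 1 ChIP and 1 input library per line. DNA of each library was pooled from 4 ChIP experiments. The ubiquitin promoter drives the fusion beyond the aleurone layer to which the native gene is confined, and a ChIP library from plants without the fusion was not analysed here, so enrichment is relative to input only. The libraries held 21973755 ChIP and 20143149 input tags in line 16, and 21297446 ChIP and 21994210 input tags in line 22, after duplicates were removed by the peak caller.

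A rice centromere is built on arrays of the CentO satellite and on centromeric retrotransposons of the Gypsy type, on which nucleosomes with the histone variant CENH3 assemble the kinetochore. It is flanked by pericentromeric heterochromatin, which is rich in transposable elements, poor in genes and low in recombination. Many reads from such repeats match several places equally well, and the satellite arrays themselves are only partly assembled. NF-YB and NF-YC form a histone-fold dimer, and in most eukaryotes NF-YA joins it and recognises the CCAAT box. OsNF-YB1 is reported to associate poorly with NF-YA, and an association with an ERF factor, a family whose site is the GCC box, has been proposed for it. The peaks below are given by their positions on MSU7.0, since neither sequence nor annotation of that build was used.

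The windows of 4 Mb on the 12 chromosomes covered 48 Mb, 12.9% of the 373 Mb up to the highest position listed on each chromosome, and the remaining sequence covered 325 Mb. Line 16 had 14 to 38 narrow peaks per window and line 22 had 6 to 19. No annotation of the centromeres was used, so the positions were checked only against the calls themselves. In the innermost 0.5 Mb on either side, broad regions, the weaker and wider calls of the same libraries, were at their sparsest of the 10 distance classes out to 5 Mb, at 25.2 per Mb in line 16 and 15.6 per Mb in line 22. On chromosome 9 the longest stretch without a call of either kind in either line, 187 kb from 2725210 to 2912548, spanned the centromere position. On chromosome 1 the longest such stretch, 309 kb from 16703695 to 17012795, began 3.69 kb beyond it. On the other 10 chromosomes the midpoint of the longest empty stretch lay outside the window, although on chromosome 7 the stretch from 13857394 to 14384319 began inside it, so for these the longest empty stretch does not mark the centromere position.

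**Figure D1:**
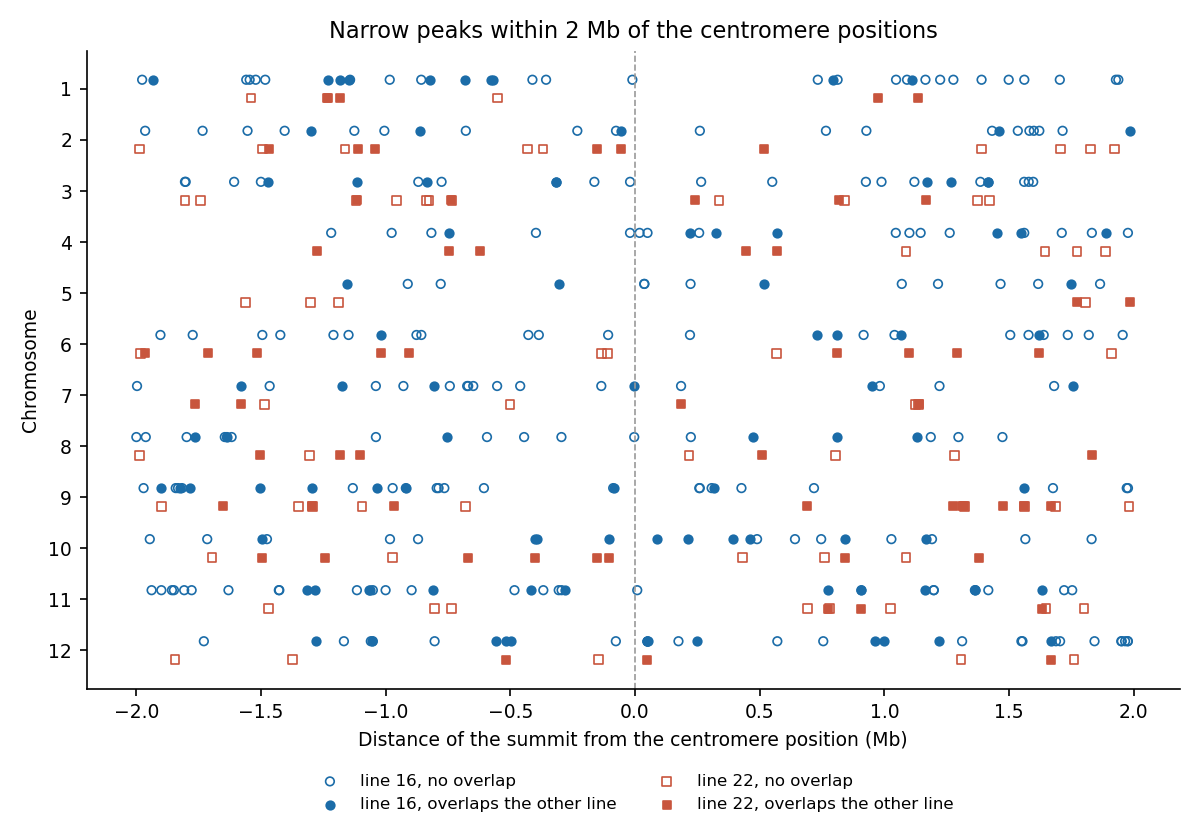
Each point is 1 narrow peak, placed by the distance of its summit from the centromere position in Mb (x axis) and by chromosome (y axis), with circles for line 16 and squares for line 22, and filled points overlap any call of the other line. Peaks of line 16 are found within 108 kb of the position on all 12 chromosomes, whereas the nearest peak of line 22 is up to 1189 kb away.

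Narrow peaks were about as dense around the centromeres as along the chromosome arms in line 16, with 6.48 peaks per Mb in the windows (95% Poisson interval 5.78 to 7.24) against 6.33 on the remaining sequence (6.06 to 6.61). The windows of line 22 held 2.83 peaks per Mb (2.38 to 3.35) against 2.15 on the remaining sequence (2.0 to 2.32). These intervals cover counting error only. The within-chromosome difference averaged 0.01 ± 0.13 (SE, n = 12 chromosomes) on the log2 scale in line 16 and 0.36 ± 0.16 in line 22. An exact two-sided sign-flip permutation test over chromosomes, adjusted by Benjamini-Hochberg over the 12 tests of both lines, gave p = 0.047 and adjusted p = 0.18 in line 22, where the windows were denser on 9 of 12 chromosomes. The same permutation test gave adjusted p = 0.94 in line 16, where 7 windows were the denser. Neither difference passed the test after adjustment. In windows of 1 Mb on either side the sign of the difference turned negative in both lines, at -0.18 and -0.26. Peaks of 1 library are not replicates, and these tests speak only of how evenly a difference ran over the chromosomes of that library.

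The chromosomes themselves differed widely. Chromosome 11 had the densest window in line 16, with 9.50 peaks per Mb against 6.25 on its remaining sequence, and chromosome 5 the sparsest, with 3.50 against 6.71. In line 22 the window of chromosome 9 was the densest, with 4.75 peaks per Mb against 2.48, and that of chromosome 5 was again the sparsest, with 1.50 against 2.47. The window of chromosome 5 was thus the poorest in narrow peaks in both lines. Chromosomes 2 and 3 differed most between the lines, since their windows held 3.75 and 4.0 peaks of line 22 per Mb, more than 2 times the 1.79 and 1.82 of their remaining sequence, while in line 16 they held 5.75 and 6.50 against 6.20 and 5.93. The ratio of line 16 to line 22 peaks was 2.29 in the windows and 2.94 on the remaining sequence. A test of the difference between the lines in the density contrast gave p = 0.049 by exact sign-flip permutation, and adjusted p = 0.30 over the 6 measures, so this was not resolved.

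Within the windows, peaks were sparser in the inner 1 Mb than 1 to 2 Mb from the centromere position. In line 16 there were 5.50 and 5.58 peaks per Mb within 0.5 Mb and at 0.5 to 1 Mb, then 7.08 and 7.75 per Mb at 1 to 1.5 Mb and 1.5 to 2 Mb. The same classes of line 22 had 1.42, 2.75, 3.92 and 3.25 peaks per Mb. The innermost class of line 22 rested on 17 peaks, with an interval of 0.83 to 2.27 peaks per Mb. That lies below the intervals at 1 to 1.5 Mb (2.88 to 5.21), 1.5 to 2 Mb (2.31 to 4.44) and 4 to 4.5 Mb (2.41 to 4.64). It overlaps the intervals of all other classes out to 5 Mb. In line 16 the innermost interval, 4.25 to 7.0, overlaps that of every other class. From 2 to 5 Mb the density ranged between 7.30 and 8.47 per Mb in line 16 and between 1.83 and 3.39 in line 22. Broad regions were sparser in the same place, with 25.2 and 31.3 per Mb in the inner classes of line 16 against 35.0 and 35.6 in the outer ones, and 15.6 and 18.2 against 23.0 and 23.1 in line 22. Over the whole windows there were 31.8 broad regions per Mb against 33.1 on the remaining sequence in line 16, and 19.96 against 18.0 in line 22, and 19.7% against 18.7% of them held a narrow peak in line 16 and 13.9% against 11.8% in line 22. Their median length was 383 bp against 367 bp in line 16 and 391 bp against 364 bp in line 22. These values of broad regions were not tested. The length of sequence to which reads align in each class was not known, and its part in this profile was not tested.

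**Figure D2:**
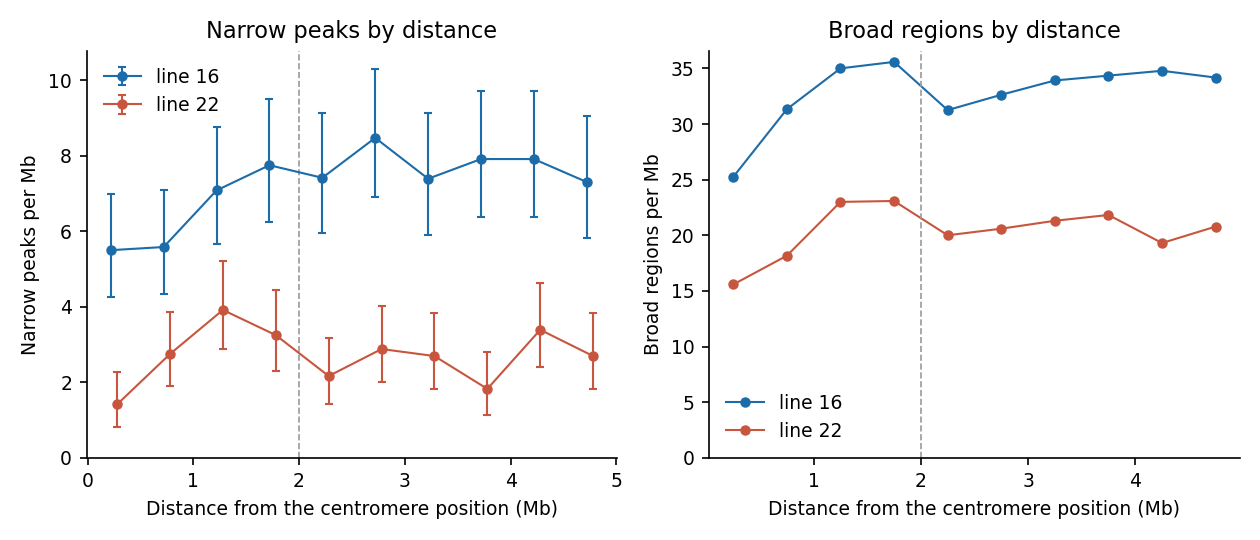
Narrow peaks (left) and broad regions (right) per Mb, on the y axes, are plotted in classes of 0.5 Mb by distance from the centromere position (x axis, both sides and 12 chromosomes together), with 95% Poisson intervals for the narrow peaks and a dashed line at 2 Mb. Both kinds of call are sparsest in the innermost class, at 5.50 and 25.2 per Mb in line 16 and 1.42 and 15.6 per Mb in line 22.

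The innermost class was divided further after the values were known, so that the following is a description. Within 100 kb of the positions, 2.40 Mb in all, line 16 had 20 narrow peaks on 11 chromosomes, 8.33 per Mb, and line 22 had 2 peaks on 2 chromosomes, 0.83 per Mb. Between 100 and 500 kb the numbers were 46 and 15 peaks, 4.79 and 1.56 per Mb. The nearest peak to the position was one of line 16 on all 12 chromosomes, at 3.24 kb at the least (chromosome 8) and 108 kb at the most (chromosome 6). For line 22 the nearest peak was 49.7 kb away at the least and 1189 kb at the most. The median over chromosomes was 28.3 kb in line 16 and 228 kb in line 22. Line 16 had more narrow peaks in all, 2368 against 835, and the part of this in the nearest distances was not tested. Distances under 100 kb are below the rounding of the positions. Broad regions within 100 kb numbered 65 in line 16 and 33 in line 22, 27.1 and 13.8 per Mb.

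Pileup, the number of ChIP tags stacked at a summit, differed little between the windows and the remaining sequence. Its median was 33.0 in the windows (quartiles 30.2 and 36.7) against 33.9 on the remaining sequence (31.2 and 36.7) in line 16, and 33.0 (30.0 and 36.0) against 34.0 (31.0 and 37.0) in line 22. The within-chromosome difference in log2 pileup was -0.01 ± 0.01 (SE, n = 12) in line 16 and -0.04 ± 0.02 in line 22, with adjusted p = 0.33 and 0.18 by the exact permutation test. Fold enrichment over input had medians of 2.69 against 2.68 in line 16 and 2.66 against 2.65 in line 22 (adjusted p = 0.33 and 0.51, same exact test). The background estimate, taken as pileup divided by fold enrichment, had medians of 12.3 against 12.6 in line 16 and 12.4 against 12.9 in line 22 (adjusted p = 0.21 and 0.64, same exact test). Pileups of line 16 were scaled by 0.917 to the smaller input library and those of line 22 were not scaled, so levels are compared within a line.

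Window peaks of line 16 had a median length of 189 bp (quartiles 160 and 231) against 177 bp on the remaining sequence (157 and 216). For line 22 the medians were 175 bp (156 and 208) against 170 bp (155 and 197). The log2 difference was 0.10 ± 0.04 in line 16, where 8 of 12 chromosomes had the longer median in the window, and 0.06 ± 0.03 in line 22, where 7 had. Neither passed the exact permutation test after adjustment (p = 0.040 and 0.12, adjusted p = 0.18 and 0.21). The longest median was that of chromosome 5 in line 16, the window with the fewest peaks, with 218.5 bp against 169.5 bp. Every narrow peak of the windows lay in a broad region of its own line, a looser call of the same library. These regions had a median length of 378 bp against 322 bp for those of the remaining narrow peaks in line 16. In line 22 the lengths were 329 bp against 260 bp, and neither difference was tested. The longest peaks in the windows measured 495 bp in line 16 (chromosome 3, 20816576 to 20817070) and 355 bp in line 22 (chromosome 10, 8094064 to 8094418), against 1097 and 1019 bp on the remaining sequence.

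The clearest difference between the windows and the remaining sequence was in overlap between the lines. In line 16, 98 of 311 window peaks overlapped a call of line 22, narrow or broad, by at least 1 bp, 31.5% (95% Wilson interval 26.6 to 36.9), against 491 of 2057 on the remaining sequence, 23.9% (22.1 to 25.8). Over all narrow peaks of line 16 the share was 24.9%. In line 22, 65 of 136 window peaks overlapped a call of line 16, 47.8% (39.6 to 56.1), against 279 of 699, 39.9% (36.3 to 43.6), with 41.2% over all narrow peaks of line 22. In line 16 the within-chromosome difference was 7.03 ± 1.54 percentage points (SE, n = 12 chromosomes), higher in the window on 11 of 12 chromosomes, with p = 0.0024 by the exact permutation test and adjusted p = 0.029. In line 22 it was 7.80 ± 3.94 points, higher on 9 of 12 chromosomes, with p = 0.075 and adjusted p = 0.18 by the same exact test. The shares of the lines are not independent, because much of the overlap is between the same places.

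Chromosomes 10, 9 and 3 had the largest excess in line 16, with 45.5% against 30.9%, 33.3% against 19.7%, and 34.6% against 22.4%, and chromosome 6 was the exception, with 20% against 23.4%. In line 22 chromosome 6 lay at the other end, with 64.3% against 43.3%, and chromosome 1 had 71.4% against 38.5% on the strength of only 7 window peaks. Chromosomes 5, 11 and 12 had lower shares in the window in line 22. By distance, the share in line 16 was 37.9%, 35.8% and 37.6% in the classes within 0.5 Mb, at 0.5 to 1 Mb and at 1 to 1.5 Mb, and 18.3% of 93 peaks at 1.5 to 2 Mb. The same classes of line 22 had 52.9%, 51.5%, 51.1% and 38.5%, the last of 39 peaks. From 2 to 5 Mb, beyond the windows, the share ranged between 23.1% and 35.7% in line 16 and between 26.5% and 48.4% in line 22. It was thus level out to 1.5 Mb in both lines, lower in the outermost window class and varied beyond, without a test of this profile. Broad regions of line 22 covered 0.91% of the window sequence against 0.76% of the remainder. Those of line 16 covered nearly the same share of both, 1.46% against 1.45%. Window peaks had the longer medians, as above. The part of these values in the overlap between lines was not tested. The call in line 16 was lost when the windows were widened to 3 Mb on either side (6.29 points, adjusted p = 0.13, exact permutation test), when the outermost 10% of each chromosome end was left out of the remaining sequence (5.84 points, adjusted p = 0.076), and when only overlaps of at least 50% of the shorter interval counted (2.98 points, adjusted p = 0.22). It was also lost with a q-value below 0.01 (6.91 points), without chromosomes 4 and 10 (6.36 points), and without any 1 of chromosomes 1, 2, 3, 4, 7, 9, 10, 11 and 12 (exact permutation test, adjusted p = 0.059 in each case), though the direction held.

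**Figure D3:**
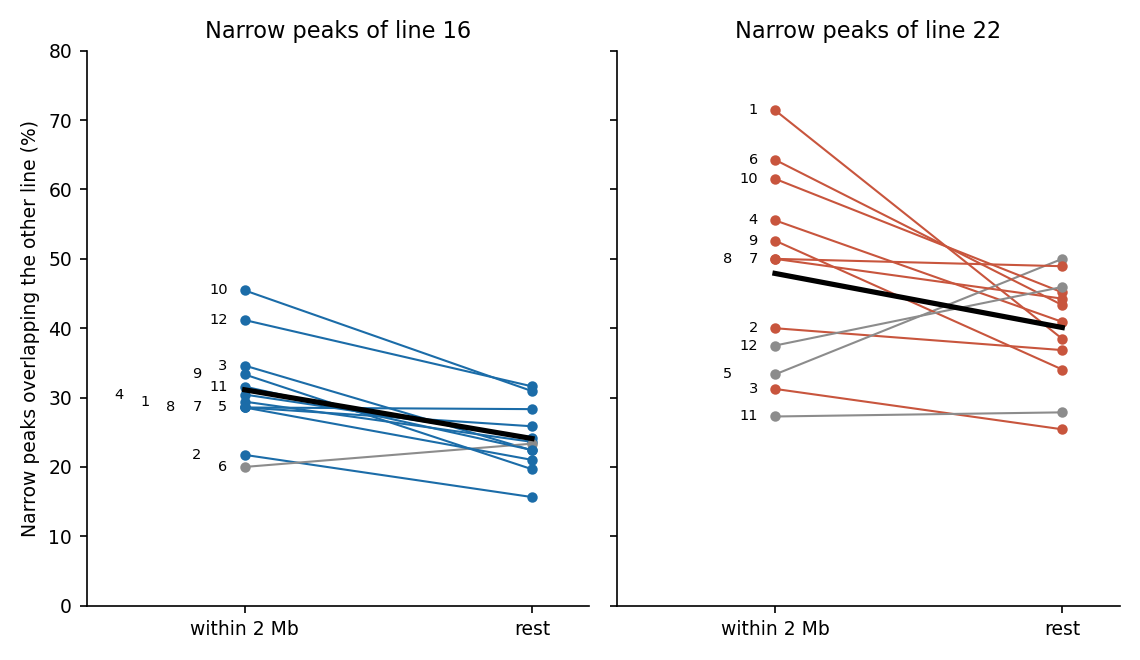
Each line joins, for 1 chromosome (number at left), the share of narrow peaks in percent (y axis) that overlap a call of the other line within 2 Mb of the centromere position and on the rest of the chromosome. The share was higher in the window on 11 of 12 chromosomes in line 16 and on 9 of 12 in line 22 (coloured), lower on the others (grey), and black marks the mean over chromosomes.

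Narrow peaks that overlapped a narrow peak of the other line were a small part of this, 18 in each line, or 5.79% against 3.50% on the remaining sequence in line 16, and 13.2% against 71 of 699 peaks in line 22. The shares over all narrow peaks were 3.80% in line 16 and 10.7% in line 22. Where only narrow partners counted, the excess in line 16 was 1.89 points (adjusted p = 0.38, exact permutation test). Broad regions alone were the partners of 80 of the 98 overlapping peaks in line 16 and 47 of the 65 in line 22. After merging only narrow peaks that overlapped each other, the overlapping peaks of both lines made 145 sites in the windows, 3.02 per Mb. There were 698 such sites on the remaining sequence, 2.15 per Mb, and the windows held 17.2% of all of them. A broad region with several narrow peaks can count here more than once. Among window peaks of line 16 those that overlapped had a median pileup of 34.4 and a median length of 194.5 bp, against 33.0 and 185 bp for the 213 that did not. Medians in line 22 were 33.0 and 181 bp, against 33.0 and 172 bp. The overlapping peaks were thus not clearly taller than the rest of the window peaks.

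The 18 pairs of overlapping narrow peaks lay on 9 chromosomes and were 20% of the 90 pairs in the series, 0.38 per Mb against 0.22 per Mb on the remaining sequence. Their summits were 1 to 175 bp apart (median 68.5 bp), against 1 to 391 bp (median 47.0 bp) for the other 72 pairs. The fold enrichment was higher in line 16 in 9 of the 18 pairs, with medians of 2.69 in both lines. On chromosome 10 there were 4 pairs, on chromosomes 6 and 11 there were 3 each, on chromosomes 1 and 12 there were 2 each, and on chromosomes 2, 3, 7 and 9 there was 1 each. No pair was found in the windows of chromosomes 4, 5 and 8.

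**Figure D4:**
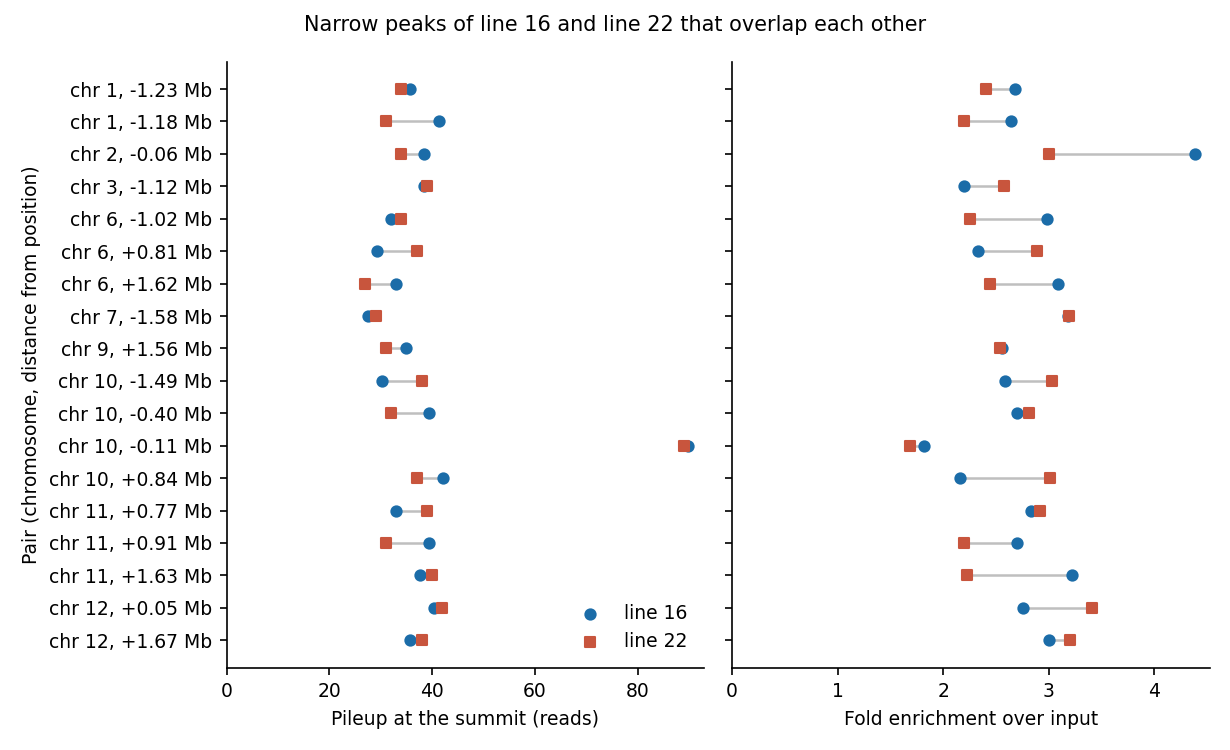
For the 18 places where narrow peaks of both lines overlap (y axis, by chromosome and distance from the centromere position), the pileup at the summit (left, tags) and the fold enrichment over input (right) are shown for line 16 (circles) and line 22 (squares). The pair on chromosome 10 at -0.11 Mb stands apart with pileups of 89.8 (scaled) and 89.0 and the lowest fold enrichments of all pairs.

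That pair on chromosome 10 had the highest pileup of any window peak in both lines. The call spanned 8094146 to 8094412 in line 16 and 8094064 to 8094418 in line 22, 106 kb from the centromere position, with summits 1 bp apart. The pileup there was 89.8 in line 16, after scaling, and 89.0 in line 22, without scaling. The next highest window peaks had 48.6 and 44.0. The fold enrichment of the pair was nevertheless 1.82 in line 16 and 1.69 in line 22, the lowest of all window peaks of each line. Background estimates were 49.5 and 52.7. These were the second highest of 2368 and the highest of 835 narrow peaks. Such a pair was not particular to the windows. A pair on the remaining sequence of chromosome 6 (10406503 to 10406867 in line 16), had pileups of 88.9 in line 16 and 79.0 in line 22 with fold enrichments of 2.04 and 1.87. The number of copies of this sequence in the Zhonghua11 genome was not known, and its part in these values was not tested.

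Other pairs close to a centromere position looked different. On chromosome 2, 55.1 kb from the position, the peak of line 16 (13544722 to 13544999) had a pileup of 38.5 and a fold enrichment of 4.39, the highest of any window peak and the sixth highest of the line, and its partner in line 22 had 34.0 and 3.0. On chromosome 12, about 50 kb from the position, the pair had pileups of 40.3 in line 16 and 42.0 in line 22 with fold enrichments of 2.76 and 3.41. The peak of line 22 (11949546 to 11949796) was the fifth in fold enrichment among its window peaks, and it lay with 3 narrow peaks of line 16 in 1 broad region per line, measuring 1418 bp (line 16) and 1471 bp (line 22). The only 2 narrow peaks of line 22 within 100 kb of a position were those of chromosomes 2 and 12.

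Among window peaks of line 16, the highest fold enrichments also lay close to the positions, at distances below their rounding. Of the 20 highest fold enrichments of the whole line, 3 belonged to window peaks, which made up 13.1% of all its narrow peaks. The 4 window peaks with the highest values were all within 100 kb: the one on chromosome 2, one on chromosome 5 (12436424 to 12436857, 36.7 kb away, 4.31), one on chromosome 4 (9717871 to 9718252, 18.1 kb away, 4.04) and one on chromosome 12 (11822991 to 11823182, 76.9 kb away, 4.0). The next 3 peaks were tied at 3.98 and lay 519 kb away on chromosome 5, 919 kb away on chromosome 9 and 1422 kb away on chromosome 6. The pileups of the 4 highest were ordinary, between 34.8 and 39.4, and the background estimates were low. These estimates lay between 8.70 and 9.75, near the minimum of 8.54 among all narrow peaks of line 16. Over the 20 peaks of line 16 within 100 kb, the median fold enrichment was 2.91 and the median background estimate 10.4. These medians were 2.59 and 12.6 for the 46 peaks at 100 to 500 kb, 2.64 and 12.3 at 500 to 1000 kb, and 2.74 and 12.3 at 1000 to 2000 kb. Of the 4 peaks, those on chromosomes 5, 4 and 12 overlapped no call of line 22. The peak on chromosome 5 was also the third longest window peak of line 16, at 434 bp, in a broad region of 1835 bp.

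**Figure D5:**
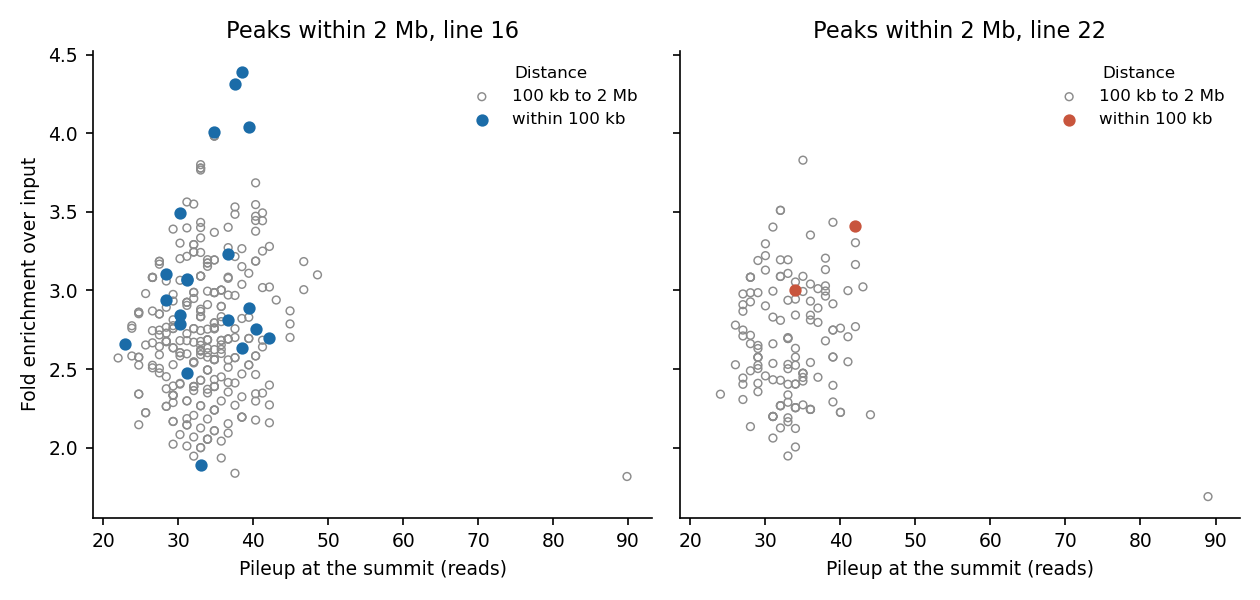
Fold enrichment over input (y axis) is plotted against pileup at the summit in tags (x axis) for window peaks of line 16 (left) and line 22 (right), with filled points within 100 kb of the centromere position. In line 16 the 4 highest values, 4.0 to 4.39, are all within 100 kb. In both panels the chromosome 10 peak lies alone, at pileups of 89.8 (scaled) and 89.0.

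In line 22 the highest fold enrichments of window peaks were spread over the windows. They were 3.83 on chromosome 8 (13116541 to 13116731, 217 kb away), 3.51 in each of 2 peaks of chromosome 4 (567 kb and 1886 kb away), 3.43 on chromosome 5 (1189 kb away) and the 3.41 on chromosome 12 given above. The peak on chromosome 8 was the fourth of the 835 peaks of its line in fold enrichment. After the pair on chromosome 10, the highest pileups of window peaks in line 16 were 48.6 on chromosome 1 (680 kb away) and 46.8 on chromosomes 5 and 6 (1616 and 1955 kb away). The next were 44.9 in each of 3 peaks, on chromosomes 4, 8 and 12 (1145, 1765 and 1220 kb away). In line 22 the highest window peaks after that pair were 44.0 and 43.0 on chromosome 3 (1374 and 841 kb away). Then came 42.0 in each of 4 peaks, on chromosomes 1, 3, 10 and 12. Among all narrow peaks, the chromosome 10 pair had the third highest pileup of line 16 and the highest of line 22. The remaining sequence reached pileups of 94.4 in line 16 and 80 in line 22. The highest fold enrichments of all narrow peaks, 7.48 in line 16 and 6.42 in line 22, were on the remaining sequence.

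Spacing within the windows was given by the distance between neighbouring summits, without a test. The median distance between neighbouring summits of line 16 was 110 kb in the windows against 99.1 kb on the remaining sequence, and in line 22 it was 200.3 kb against 277 kb. Neighbours within 3 kb of each other made up 6.02% of 299 distances in the windows of line 16 against 4.33% of 2033, and 4.84% of 124 against 2.51% of 676 in line 22. On either side of the centromere positions there were similar numbers, with 159 peaks on the side of lower coordinates and 152 on the other in line 16, and 70 and 66 in line 22. The outermost window peaks lay at 1.999 and 1.997 Mb in line 16 with pileups of 28.4 and 33.0, and the first peaks beyond it at 2.005 and 2.010 Mb with 34.8 and 28.4. In line 22 the outermost lay at 1.988 and 1.987 Mb with pileups of 36.0 and 34.0, and the first beyond it at 2.010 and 2.038 Mb with 31.0 and 34.0.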

How the data were processed

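ChIP and input DNA of lines 16 and 22 was sequenced as 4 libraries, and reads were aligned by the authors to MSU7.0 with Bowtie2 at default settings. The run names in the file headings instead contain the word bowtie1, so the aligner, and with it the placing of reads that match several places, is uncertain. The authors called narrow peaks (q-value below 0.05) and, at a looser cutoff, broad regions for each line against its own input with MACS 2.0.10.20131216, keeping at most 1 tag per position. The deposited pileup is a signal value, the number of ChIP tags at the summit after scaling to the smaller library, and the deposited fold enrichment is a ratio over the estimated background. The deposited −log10 q-value was used only for a stricter cutoff. The file headings name the lines, while the labels only number the libraries. Pileups of broad regions, which were negative throughout, and the separate summit lists were not used.

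Centromere positions, members, measures and lists were chosen with earlier results of these data known. Each of 6 measures (density, with 0.5 added to each number of peaks, and medians of pileup, length, fold enrichment and background estimate, all on the log2 scale, and the percentage of overlap with the other line) was compared within chromosomes, window minus remaining sequence, where a window held at least 3 peaks. Exact two-sided sign-flip permutation tests ran over 12 chromosomes, for which the smallest p is 0.00049, with Benjamini-Hochberg adjustment over 12 tests of the lines and separately over 6 tests of their means. Chromosome length was taken as the highest position in the lists. Named peaks were all overlapping pairs, the 5 highest by fold enrichment and by pileup and the 3 longest in each line, the peak nearest each position and those on either side of the limit; not all are printed. Alternatives were windows of 1 and 3 Mb, a q-value below 0.01, leaving out chromosomes 4 and 10, the outermost 10% of each chromosome end, or 1 line, and other definitions of overlap. Python 3.11.15, numpy 2.4.6, pandas 2.3.3 and scipy 1.17.1 were used, and the tests were tried on simulated data.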

Additional observations from a re-analysis of the deposited data

How the results depend on the processing

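Of 108 values under alternative settings, the chromosomes left out singly not counted, 90 kept their direction and their side of the threshold. Most of these 90 had no call in either setting. Another 5 reversed direction and 13 lost a call. All 13 belonged to the overlap between lines, in line 16 or in the mean of the lines, the only results with a call. The overlap between lines in line 16 had an excess of 7.03 percentage points and kept its call in windows of 1 Mb. It stayed positive but lost its call in windows of 3 Mb (6.29), with a q-value below 0.01 (6.91), without chromosomes 4 and 10 (6.36), without the outermost 10% of each chromosome end (5.84), with narrow peaks as the only partners (1.89) and with an overlap of 50% of the shorter interval (2.98). Leaving out each chromosome in turn, which was chosen after seeing the data, gave 6.35 to 7.97 points and lost the call for 9 chromosomes. For the mean of the lines the excess was 7.41 points (adjusted p = 0.041, exact permutation test). It lost its call in windows of 1 Mb (14.3, with 9 chromosomes) and 3 Mb (4.43), without chromosomes 4 and 10 (6.31), without the outermost 10% of each chromosome end (6.19), with narrow partners only (2.55) and with 50% overlap (5.64). Leaving out 1 line or 1 chromosome gave 6.33 to 8.72 points, and the call was lost without line 16 and without any 1 of chromosomes 1, 2, 3, 4, 6, 7, 9 and 11. The cause was not tested. The density difference reversed in windows of 1 Mb in line 16 (-0.18), line 22 (-0.26) and their mean (-0.22), and without the outermost 10% in line 16 (-0.071). The background estimate of line 16 reversed in windows of 1 Mb (0.0032). None of these reversals passed the test in either setting.

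No paired analysis was possible because each ChIP library had already been set against the input of its own line in the calls, and the lines are not 2 conditions. This limit concerns the pairing of libraries only, because the tests did pair each window with the remaining sequence of the same chromosome. With 1 ChIP library per line, all tests concern chromosomes within a library and none the variation between plants. The positions are rounded, the alignable sequence around them was not known, and a comparison with an alignable denominator and of sequence at the summits was not run.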
